A study of Mus musculus with 6 samples.

Results

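The CC chemokine genes followed here are 9 ligands (Ccl2, Ccl3, Ccl4, Ccl5, Ccl6, Ccl7, Ccl9, Ccl17 and Ccl22) and the receptor-like gene Ccrl2, taken by gene name from a table of 54532 genes. The RNA came from bone marrow neutrophils of C57BL/6J mice, with 3 libraries from WT cells and 3 from progranulin knock out (PGRN KO) cells. All 6 cultures were held for 2 h in medium with 10% fetal bovine serum and then received live Candida albicans for 6 h, at a ratio of 1:1 in the sample labels and another ratio in the study's text. There were no libraries without Candida, so the values are levels after challenge and not induction. The cells were selected with anti-Ly-6G beads, the PGRN KO mice lack progranulin in every cell, the WT mice came from another supplier, and the sources used here give neither the age of the mice nor the number behind each culture. The p-values therefore measure the spread between these libraries, which may be technical. Grn, the targeted gene, was at 165.3 ± 3.63 FPKM in WT libraries and at 0.398 ± 0.302 FPKM in PGRN KO libraries (SD, n = 3 each), as the labels state.

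CC chemokines are small secreted proteins that attract leucocytes by binding G protein-coupled receptors, and they share a pair of adjacent cysteines near the start of the mature protein. Ccl3, Ccl4 and Ccl5 attract monocytes, T cells and other leucocytes and are made in quantity by activated neutrophils and macrophages. Ccl6 and Ccl9 are rodent ligands of CCR1, Ccl2 and Ccl7 draw monocytes through CCR2, and Ccl17 and Ccl22 draw T cells through CCR4. Ccrl2 is no ligand. It is a membrane protein of the receptor family that binds the attractant chemerin without the usual signalling.

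The paired cysteine codons that define the family were read from the GENCODE M21 coding sequences (GRCm38). Each line shows 45 coding bases of a ligand, 5′ to 3′ in the sense of the gene, with the paired codons in capitals.
Ccl3: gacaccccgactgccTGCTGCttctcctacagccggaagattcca
Ccl4: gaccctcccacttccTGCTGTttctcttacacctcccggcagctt
Ccl5: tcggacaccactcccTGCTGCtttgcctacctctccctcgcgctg
Ccl6: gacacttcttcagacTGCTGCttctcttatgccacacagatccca
Ccl9: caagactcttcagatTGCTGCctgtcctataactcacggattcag
Ccl2: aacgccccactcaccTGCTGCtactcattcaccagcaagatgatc
Ccl7: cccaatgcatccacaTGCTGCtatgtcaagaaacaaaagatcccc
Ccl17: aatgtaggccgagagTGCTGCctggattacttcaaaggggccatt
Ccl22: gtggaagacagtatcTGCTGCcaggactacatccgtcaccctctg
All 9 ligands held the pair exactly once in frame, and Ccl4 alone among them spelled it with a different second codon. The closest coding sequences were those of Ccl6 and Ccl9, with 70.6% of aligned bases identical, followed by Ccl3 and Ccl4 with 70.0% and Ccl2 and Ccl7 with 68.4%. The longest run of identical bases shared by any pair of their transcripts was 25 bases, for Ccl6 and Ccl9, against reads of 150 bases. A read of full length from these coding sequences therefore differs between the paralogs.

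In PGRN KO neutrophils, 6 of the 9 members that could be tested were lower (Ccl22, Ccl9, Ccl5, Ccl6, Ccrl2 and Ccl3) and 1 was higher (Ccl2). Ccl4 and Ccl7 did not pass the threshold, and Ccl17 was too low to test. The genotypes were compared with limma on log2(FPKM + 1), where FPKM is fragments per kilobase of gene scaled to the depth of the library, over the 14807 genes whose FPKM averaged 0.1 or more, and adjusted p is Benjamini-Hochberg over all of them. As background, 17.9% of all tested genes were called: 9.95% were lower and 7.94% higher at an adjusted p under 0.05. Among the 5136 genes averaging 5 FPKM or more, the range that held all 7 called members, these shares were 20.1% and 13.1%. The median log2 fold change was -0.66 over the tested members and 0.0026 over all tested genes. In bulk RNA, fewer cells of a kind and less RNA per cell cannot be told apart.

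The levels of the family spanned several orders of magnitude. In the mean of the WT libraries, Ccl4 ranked 6 and Ccl3 ranked 8 among all genes by FPKM, and in PGRN KO they ranked 5 and 10. Ccrl2 ranked 32 and 63, and Ccl5 ranked 96 and 146. Every other member was under 23 FPKM in all libraries. The FPKM of the 9 ligands added up to 13580, 13899 and 15016 in the WT libraries and to 12598, 12252 and 11452 in the PGRN KO libraries. Ccl3 and Ccl4 together made 95.8% to 96.0% of that sum in WT and 97.0% to 97.2% in PGRN KO, so the sum says little about the other 7 ligands. Those 7 added up to 572, 551 and 603 FPKM in WT and to 348, 357 and 347 FPKM in PGRN KO, with no overlap, but most of this was Ccl5. Without Ccl5, the remaining ligands added up to 52.5, 48.1 and 51.6 FPKM in WT and to 29.2, 27.5 and 30.7 FPKM in PGRN KO.

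**Figure D1:**
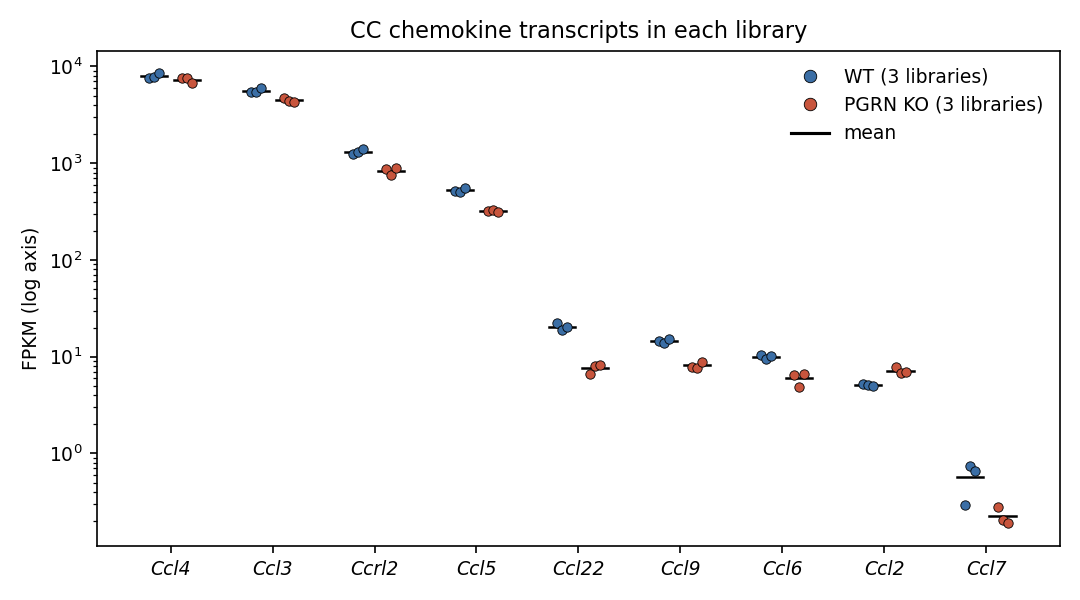
FPKM (log axis) of 9 CC chemokine members in each of 3 WT and 3 PGRN KO libraries, with a bar at each group mean; Ccl17 is not drawn because it was at 0 in 3 libraries. Ccl4 and Ccl3 sat at 4315 FPKM or more in every library, the PGRN KO points of Ccl22 fell to those of Ccl9 and Ccl2, and Ccl2 was the member with higher PGRN KO points.

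Ccl3 (ENSMUSG00000000982, chromosome 11 from 83647844 to 83649355) stood at 5424, 5493 and 5919 FPKM in WT cells, while PGRN KO cells gave 4694, 4375 and 4315 FPKM. Every PGRN KO library was below every WT library, and the mean fell to 79.5% of WT. The log2 fold change was -0.33 (SE 0.058, limma adjusted p = 0.0115). This was the smallest of the called changes, and it was not past the threshold under quantile normalization (log2 fold change -0.13, adjusted p = 0.169).

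Ccl4 (ENSMUSG00000018930, chromosome 11 from 83662584 to 83664683) lies beside Ccl3 and is transcribed from the other strand. Its FPKM was 7585, 7855 and 8494 in WT and 7556, 7520 and 6790 in PGRN KO. The groups were separated by a gap narrower than the spread within either group. The log2 fold change of -0.13 (SE 0.069) had an adjusted p of 0.248 from limma, and it was 0.12 under quantile normalization, so no direction was established. Before scaling, the PGRN KO libraries held 267239 Ccl4 fragments and the WT libraries 267511.

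The ratio of Ccl4 to Ccl3 within a library does not depend on a scaling by 1 factor per library. It was 1.40, 1.43 and 1.44 in WT and 1.61, 1.72 and 1.57 in PGRN KO, with no overlap. Ccl4 thus took a larger share relative to Ccl3 in each PGRN KO library.

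Ccl5 (ENSMUSG00000035042, chromosome 11 from 83525778 to 83530518), a ligand of CCR1 that also attracts T cells, stood at 519, 503 and 551 FPKM in WT cells, compared with 319, 329 and 316 FPKM in PGRN KO cells. The PGRN KO libraries lay close together and far below WT. The mean fell to 61.3% of WT, with a log2 fold change of -0.70 (SE 0.047, limma adjusted p = 0.000377). The ratio of Ccl3 to Ccl5 was 10.4, 10.9 and 10.7 in WT and 14.7, 13.3 and 13.7 in PGRN KO, so Ccl5 was lower relative to Ccl3 as well. The length behind the FPKM exceeds that of the coding transcript for Ccl5 (960 against 532 bases), Ccl2 (1138 against 813) and Ccl6 (1795 against 1440), so their levels may be understated beside those of other genes. The same length was used in both genotypes, and which transcripts were present was not measured.

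Ccl9 (ENSMUSG00000019122, chromosome 11 from 83572919 to 83578636) stood at 14.4, 13.9 and 15.3 FPKM in WT cells, compared with 7.89, 7.59 and 8.92 FPKM in PGRN KO cells. Its log2 fold change was -0.77 (SE 0.070, limma adjusted p = 0.00118), and its mean was at 55.9% of WT. Its neighbour Ccl6 (ENSMUSG00000018927, chromosome 11 from 83587882 to 83593087) gave 10.4, 9.45 and 10.1 FPKM in WT cells, compared with 6.43, 4.91 and 6.58 FPKM in PGRN KO cells. Both genes were lower in every PGRN KO library than in any WT library. For Ccl6 the log2 fold change was -0.66 (SE 0.10, limma adjusted p = 0.00795), resting on 910 WT and 598 PGRN KO fragments. The ratio of Ccl9 to Ccl6 was 1.46 ± 0.0649 in WT cells and 1.38 ± 0.161 in PGRN KO cells (SD, n = 3 each) with overlapping libraries, so a difference in how far these paralogs fell was not detectable. A noncoding transcript on the other strand, E230016K23Rik, spans Ccl6 at 0.287 FPKM in WT and 0.0570 FPKM in PGRN KO. This overlap was read from the spans of the genes and not from their exons. The sources used here do not say whether counting used strand, so reads of any shared exon could be misassigned.

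Ccl22 (ENSMUSG00000031779, chromosome 8 from 94745590 to 94751699), which attracts CCR4-bearing T cells and is known from dendritic cells and macrophages, changed most among the members. Its FPKM was 22.1, 18.9 and 20.3 in WT and 6.65, 7.93 and 8.16 in PGRN KO. The mean was 2.70 times higher in WT, resting on 2417 WT and 984 PGRN KO fragments. The log2 fold change was -1.32 (SE 0.089, limma adjusted p = 0.000387), and 0.115% of tested genes had a value as low. Ccl17 (ENSMUSG00000031780, chromosome 8 from 94810453 to 94812036), the other CCR4 ligand, was listed at 0, 0 and 0.227 FPKM in WT and at 0.109, 0.107 and 0 FPKM in PGRN KO. That is 2 fragments per genotype, each with an exact 95% Poisson interval of 0.242 to 7.22 fragments, which covers counting error only. A count of 0 allows up to 3 fragments, or 0.344 FPKM in WT replicate 1, so Ccl17 was not measurable at this depth in either genotype.

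Ccl2 (ENSMUSG00000035385, chromosome 11 from 82035571 to 82037453), the main attractant of CCR2-bearing monocytes, went the other way. Its FPKM was 5.23, 5.06 and 4.98 in WT and 7.83, 6.77 and 6.88 in PGRN KO. All PGRN KO libraries were above all WT libraries, and the mean rose to 140.8% of WT, a log2 fold change of 0.42 (SE 0.066, limma adjusted p = 0.00818), from 294 and 453 fragments. A gene on the other strand, Gm17268, spans Ccl2 and was listed at 0 FPKM in both genotypes. As for Ccl6, the overlap is one of gene spans, and reads of any shared exon could be misassigned. Ccl7 (ENSMUSG00000035373, chromosome 11 from 82045712 to 82047525), also a CCR2 ligand and the next gene along, gave 0.294, 0.749 and 0.656 FPKM in WT cells, compared with 0.280, 0.206 and 0.191 FPKM in PGRN KO cells. Behind these were 4, 10 and 9 WT fragments and 4, 3 and 3 PGRN KO fragments, so WT replicate 1 held no more fragments than the highest PGRN KO library. Its log2 fold change of -0.34 (SE 0.12) had an adjusted p of 0.102 from limma, and without WT replicate 1 it was -0.47 with an adjusted p of 0.0221.

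The ratio of Ccl2 to Ccl22 put the opposite changes side by side within each library. It was 0.236, 0.268 and 0.245 in WT and 1.18, 0.854 and 0.844 in PGRN KO. In the WT order by level, Ccl22 came before Ccl9, Ccl6 and Ccl2, and each of these neighbours was separated without overlap. In PGRN KO, Ccl9 at 8.14 ± 0.696, Ccl22 at 7.58 ± 0.814 and Ccl2 at 7.16 ± 0.579 FPKM (SD, n = 3 each) overlapped and could not be ordered. This order depends on the gene length used: per length of its coding transcript, Ccl2 stood at 9.48 FPKM or more in every PGRN KO library, above every PGRN KO value of Ccl22 and Ccl9 computed likewise.

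**Figure D2:**
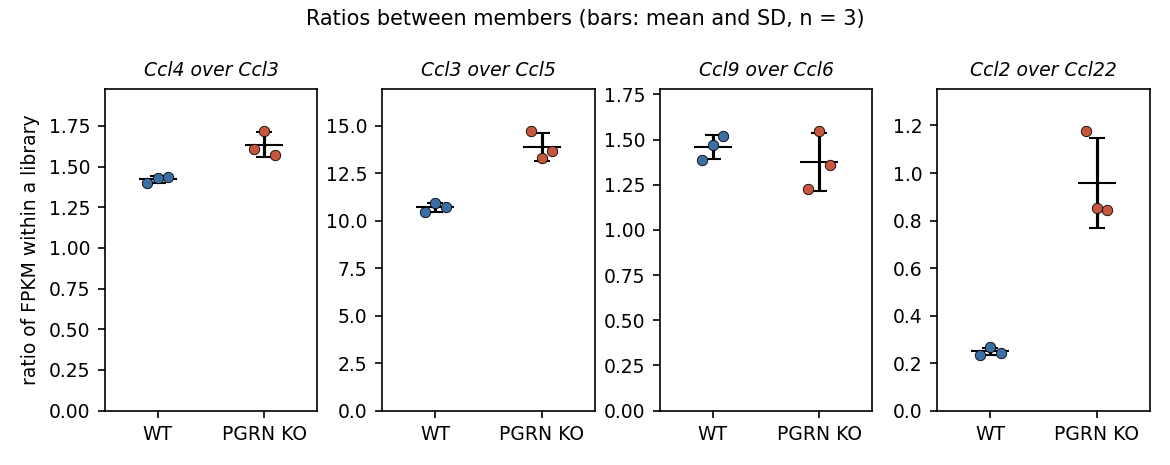
Ratios of FPKM between pairs of members within a library for WT and PGRN KO, with points for libraries and bars for the mean and SD (n = 3). Ccl4 over Ccl3, Ccl3 over Ccl5 and Ccl2 over Ccl22 were higher in every PGRN KO library, whereas Ccl9 over Ccl6 overlapped between genotypes.

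Ccrl2 (ENSMUSG00000043953, chromosome 9 from 111054486 to 111057519) was the most abundant member after Ccl4 and Ccl3. Its FPKM was 1258, 1294 and 1399 in WT and 863, 752 and 891 in PGRN KO. No PGRN KO library came near the WT range, and the mean fell to 63.4% of WT. The log2 fold change was -0.66 (SE 0.076, limma adjusted p = 0.00271), from 173801 and 120999 fragments. Of the genes for its ligand and the signalling receptors of that ligand, Rarres2 (chemerin) and Gpr1 were listed at 0 in all libraries. Cmklr1, the signalling chemerin receptor, was at 0.312 ± 0.0530 FPKM in WT cells and 0.228 ± 0.0345 FPKM in PGRN KO cells (SD, n = 3 each), with a log2 fold change of -0.095 (limma adjusted p = 0.374).

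The libraries of the genotypes did not overlap for any of the 9 tested members, where 37.7% of all tested genes showed no overlap, 19.6% lower and 18.1% higher. With fragments set against the plain total of each library, the 6 members called lower and Ccl2 were again without overlap, but the libraries of Ccl4 and Ccl7 overlapped. By exact permutation of the 6 libraries, a single gene cannot reach a two-sided p below 0.10.

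**Figure D3:**
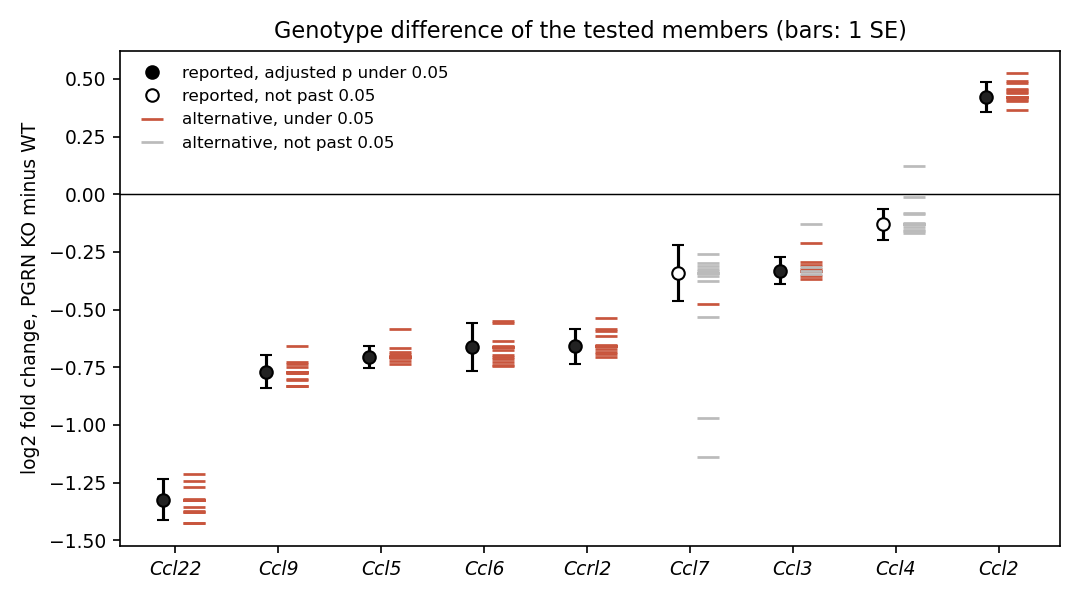
Log2 fold change (PGRN KO minus WT, on log2(FPKM + 1)) of the 9 tested members, with the reported value and 1 SE as a circle and each of the alternative settings as a dash. Ccl22 lay lowest, between -1.43 and -1.21 in all settings, Ccl2 stayed above 0, and the dashes of Ccl4 fell on both sides of 0.

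The members are grouped on the genome. Ccl5, Ccl9, Ccl6, Ccl3 and Ccl4 lie within 138.9 kb of chromosome 11, and Ccl2 and Ccl7 lie in a second stretch of the same chromosome. The first stretch ends 18.8 Mb before Grn. Its other genes in the table were E230016K23Rik, which was lower (log2 fold change -0.28, limma adjusted p = 0.0256), and Rpl9-ps1 (log2 fold change -0.10, adjusted p = 0.454). E230016K23Rik averaged 0.287 FPKM in WT and 0.0570 FPKM in PGRN KO, so it reached the minimum for testing only through WT. Ccl22 and Ccl17 are together on chromosome 8 and Ccrl2 is on chromosome 9, so the members called lower came from 3 chromosomes.

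Promoter sequence was at hand for 6 of the 10 members in RefSeq (GRCm38.p6), namely Ccl3, Ccl6, Ccl9, Ccl17, Ccl22 and Ccrl2. The 250 bases before the start were searched on both strands for the NF-kB consensus, for the AP-1 motif TGANTCA and for the PU.1 core GAGGAA, since these factors act on inflammatory genes of myeloid cells. The NF-kB consensus was found in Ccl9 and in 1 of the 3 promoter entries of Ccrl2. Over the whole table, 3.90% of promoter entries held it, a share per entry and not per gene. AP-1 was found in Ccl9, against 6.75% of all promoter entries, and the PU.1 core in Ccl3 and Ccl17, against 23.3%. The stretches with an NF-kB match, and that of Ccl22, which changed most and held none of the 3 motifs, are shown 5′ to 3′ in the sense of the gene, with matches in capitals.
Ccl9 (chr11:83578637-83578886, minus strand): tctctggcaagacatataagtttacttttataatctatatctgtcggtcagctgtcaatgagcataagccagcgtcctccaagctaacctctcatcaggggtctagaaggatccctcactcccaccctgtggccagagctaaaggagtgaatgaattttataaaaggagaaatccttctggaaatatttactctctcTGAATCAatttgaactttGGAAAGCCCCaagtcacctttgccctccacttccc
Ccrl2 (chr9:111057519-111057768, minus strand): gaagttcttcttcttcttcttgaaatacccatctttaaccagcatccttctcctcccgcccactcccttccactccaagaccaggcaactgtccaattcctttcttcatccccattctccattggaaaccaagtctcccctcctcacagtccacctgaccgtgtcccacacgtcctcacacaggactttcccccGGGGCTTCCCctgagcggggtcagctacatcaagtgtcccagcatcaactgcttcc
Ccl22 (chr8:94745434-94745683, plus strand): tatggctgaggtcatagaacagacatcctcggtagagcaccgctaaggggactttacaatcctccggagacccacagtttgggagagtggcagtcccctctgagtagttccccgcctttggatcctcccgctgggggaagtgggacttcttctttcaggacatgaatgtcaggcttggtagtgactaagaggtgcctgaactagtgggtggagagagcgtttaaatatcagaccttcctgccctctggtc
In Ccl9 the first base of the AP-1 match lies 53 bases and that of the NF-kB match 35 bases before the start, and in Ccrl2 the NF-kB match begins 56 bases before the first of its 3 annotated starts. Both genes were called lower, as were Ccl3, Ccl6 and Ccl22, whose promoters hold no NF-kB match in this window. The Ccl22 window ends at 94745683, past the start of 94745590 that the gene has in the FPKM data. Part of that window therefore lies inside the gene by this other annotation.

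Of 15 other CC ligands, 9 were listed at 0 in all 6 libraries, among them Ccl20, which draws CCR6-bearing cells, and Ccl1, Ccl8 and Ccl11. The 4 that could be tested, Ccl12, Ccl24, Ccl25 and Ccl27a, were all under 0.5 FPKM in every library, and none was called, while 1 had an unadjusted p under 0.05. In 6 of the 16 alternative settings, voom and the fit without WT replicate 1 among them, 1 of these ligands was called lower. Ccl24, an attractant of eosinophils, came nearest, with 16 WT and 2 PGRN KO fragments (log2 fold change -0.27, limma adjusted p = 0.055). It averaged 0.244 FPKM in WT and 0.0275 FPKM in PGRN KO, so it reached the minimum for testing only through WT. The 4 ligands had a median log2 fold change of -0.0051.

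Of 10 CC receptors considered, 4 could be tested, and 2 were lower and 1 higher in PGRN KO, with a median log2 fold change of -0.49. Ccr1, the receptor for Ccl3, Ccl5, Ccl6 and Ccl9 and the main CC receptor of mouse neutrophils, was at 154.3 ± 11.7 FPKM in WT cells and 137.6 ± 14.5 FPKM in PGRN KO cells (SD, n = 3 each), and was not called (log2 fold change -0.17, limma adjusted p = 0.256). Ccr2, the receptor for Ccl2 and Ccl7, fell from 3.82 ± 0.219 to 1.73 ± 0.260 FPKM (SD, n = 3 each; log2 fold change -0.82, adjusted p = 0.00200), the opposite direction to Ccl2. Ccr7, which guides cells to lymph nodes, fell from 25.1 ± 1.19 to 11.6 ± 1.66 FPKM (SD, n = 3 each; log2 fold change -1.06, adjusted p = 0.00136). Ccr10 rose from 0.982 ± 0.177 to 2.29 ± 0.286 FPKM (SD, n = 3 each; log2 fold change 0.73, adjusted p = 0.00480). Ccr4, the receptor for Ccl22, had a single fragment, and the atypical receptors Ackr1 to Ackr4 were all below the minimum for testing.

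Downstream of the receptors, 4 of 23 tested signalling genes were lower and 2 higher, with a median log2 fold change of 0.022. Over all tested genes, 9.95% were lower and 7.94% higher. Among those averaging 5 FPKM or more, 20.1% were lower and 13.1% higher, so the counts of this list lay near the background. The same shares are the background for each of the other lists. The 4 with the largest change were Grk5 (-0.50) and Rgs1 (-0.50), which dampen receptor signalling, Elmo1 (-0.50), which activates Rac with a Dock protein, and Pik3r5 (-0.39), a regulatory subunit of the kinase whose catalytic gene Pik3cg was higher (0.29). Rac2, the most abundant gene of the list and the main Rac of neutrophils, was also higher (log2 fold change 0.17, limma adjusted p = 0.0200). With FPKM rescaled to plain totals of fragments, 7 genes of this list were higher and 4 lower. Without WT replicate 1, WT replicate 2 or PGRN KO replicate 5 no gene was called higher, and 4, 3 and 3 were lower.

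Among 20 transcription factors known from chemokine genes, 11 were lower, with a median log2 fold change of -0.28. The largest falls were in Atf3, from 374.2 ± 2.49 to 199.8 ± 7.89 FPKM (SD, n = 3 each; log2 fold change -0.90, limma adjusted p = 0.000105), Egr2 (-0.77), Fos (-0.75) and Jun (-0.62). Fos and Jun form AP-1, and Atf3 is induced by stress and restrains inflammatory genes. Of the NF-kB subunits, Rel was called (log2 fold change -0.32, adjusted p = 0.0474), while Rela (-0.13, adjusted p = 0.352) and Nfkb1 (-0.081, adjusted p = 0.536) were not. Cebpb, the most abundant factor, had a log2 fold change of -0.29 (adjusted p = 0.110). Quantile normalization gave 7 lower, plain totals of fragments 7 lower and 1 higher, and the fits without WT replicate 2 or 3 or PGRN KO replicate 5 gave 7 lower.

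Of 10 genes that control the decay of chemokine mRNA, 2 were lower, with a median log2 fold change of -0.12. That share is near the 20.1% called lower among all tested genes averaging 5 FPKM or more. Zfp36 (tristetraprolin), which binds AU-rich elements of cytokine and chemokine transcripts, fell from 599.3 ± 8.33 to 387.2 ± 79.8 FPKM (SD, n = 3 each; log2 fold change -0.65, limma adjusted p = 0.0225), and the RNase Zc3h12c fell by 0.75 on the log2 scale (adjusted p = 0.00480). The count was 1 with no filter on low values or without WT replicate 1, 2 or 3 or PGRN KO replicate 5, 3 without PGRN KO replicate 4, and 4 with voom or a minimum mean FPKM of 1. Of 11 proteases that can cut chemokines, 4 were higher and 3 lower, with a median log2 fold change of -0.013. The primary granule proteases Ctsg (2.85), Prtn3 (2.32) and Elane (2.09) had the largest log2 fold changes, followed by Mmp14 (-0.74). Mmp9, the most abundant of the list over all 6 libraries, rose by 0.25 on the same scale, although Elane and Prtn3 exceeded it in PGRN KO. Without WT replicate 1, 2 or 3, the protease counts were 3 higher and 1 lower.

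Markers of other cells were read beside these results. Neutrophil markers dominated, with a summed level of 67342 to 71953 FPKM in WT and 69108 to 78888 FPKM in PGRN KO. Of these markers, 2 of 10 (Csf3r and Mmp8) were lower, near the 20.1% among all tested genes averaging 5 FPKM or more. Under quantile normalization or plain totals of fragments, 2 were called higher instead. No neutrophil marker was called without WT replicate 1, 2 or 3 or PGRN KO replicate 5, and 2 were higher and 2 lower without PGRN KO replicate 4. Of 8 tested monocyte and macrophage markers, 4 were lower (F13a1, Ms4a6c, Ccr2 and Fn1) and Ly6c2, which is also the most abundant, was higher. The call of Ly6c2 was lost with no filter on low values, with eBayes without trend and without any 1 library other than PGRN KO replicate 4, and 3 markers were lower without WT replicate 2 or 3 or PGRN KO replicate 5. Their summed level was 545 to 553 FPKM in WT and 560.1 to 708 FPKM in PGRN KO. Most of it was Ly6c2, at 401.1 ± 4.58 FPKM in WT and 521.2 ± 71.9 FPKM in PGRN KO (SD, n = 3 each). The sum therefore says little about the 4 lower markers. The macrophage markers C1qa and C1qb had at most 2 fragments in any library. Adgre1, also a macrophage marker, was at 46.3 ± 1.91 FPKM in WT and 43.4 ± 2.91 FPKM in PGRN KO (SD, n = 3 each; limma adjusted p = 0.342). Csf1r was at 45.6 ± 1.25 FPKM in WT and 40.9 ± 2.51 FPKM in PGRN KO (SD, n = 3 each; limma adjusted p = 0.105). Neither gene was called. Of 6 tested dendritic cell markers, 4 were lower (H2-Eb1, Ccr7, H2-Ab1 and Cd74), with a median log2 fold change of -0.67, and the summed level of the list was 160.6 to 174.9 FPKM in WT and 96.2 to 105.7 FPKM in PGRN KO. The defining dendritic cell genes Flt3, Zbtb46, Cd209a and Siglech were each under 0.2 FPKM in every library. Xcr1, from 96 WT and 65 PGRN KO fragments, and Fscn1, from 129 and 78 fragments, were detected in every library and lower without overlap in PGRN KO, but were not called (limma adjusted p = 0.112 and 0.0537). Of all tested genes, 19.6% were lower without overlap. Ccr2 and Ccr7 stand in the receptor list as well. The part of these cells in the lower Ccl22, Ccr7 and Ccr2 was not tested.

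Most of the called markers of lymphoid, basophil, eosinophil and immature cells were higher in PGRN KO. Of 5 tested T and NK cell markers, 1 was called, and it was higher (Nkg7, log2 fold change 1.31), with a summed level of 3.18 to 3.71 FPKM in WT and 8.21 to 9.56 FPKM in PGRN KO, mostly from Nkg7. Cd3e and Cd3g were listed at 0 in all libraries, while Cd3d, Trac, Lck and Il2rb were detected in each genotype, from 10 to 40 fragments. The NK and cytotoxic cell genes Ncr1, Klrb1c, Prf1 and Gzma had at most 3 fragments in any library, so Nkg7 rose without them. T and NK cells also make Ccl5, and their part in its level was not tested. Of 6 tested B and plasma cell markers, 5 were higher and 1 (Ighm) lower, the summed level going from 448 to 463 FPKM in WT to 2173 to 2468 FPKM in PGRN KO, and Pax5 was at 0. Their part in the higher Ccr10, a receptor also known from plasma cells, was not tested. Of 6 tested basophil and mast cell markers, 4 were called, all higher, with sums of 141.7 to 162.1 FPKM in WT and 161.1 to 168.9 FPKM in PGRN KO that rested on Hdc (log2 fold change 0.013, limma adjusted p = 0.909). Of 5 tested eosinophil markers, 3 were higher and 1 lower, with sums of 10.8 to 12.6 and 12.1 to 15.6 FPKM, and 2 were called without WT replicate 1, 2 or 3, without PGRN KO replicate 6 or with a minimum mean FPKM of 1. Of the called markers, the basophil gene Fcer1a averaged 0.0594 FPKM in WT and 0.631 FPKM in PGRN KO. The eosinophil gene Epx averaged 0.0432 and 0.347 FPKM. Both reached the minimum for testing only through PGRN KO, so their calls carry little weight. All 6 tested promyelocyte markers were higher, with sums of 129.9 to 145.5 FPKM in WT and 611 to 673 FPKM in PGRN KO. The part of these cells in the chemokine levels was not tested.

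**Figure D4:**
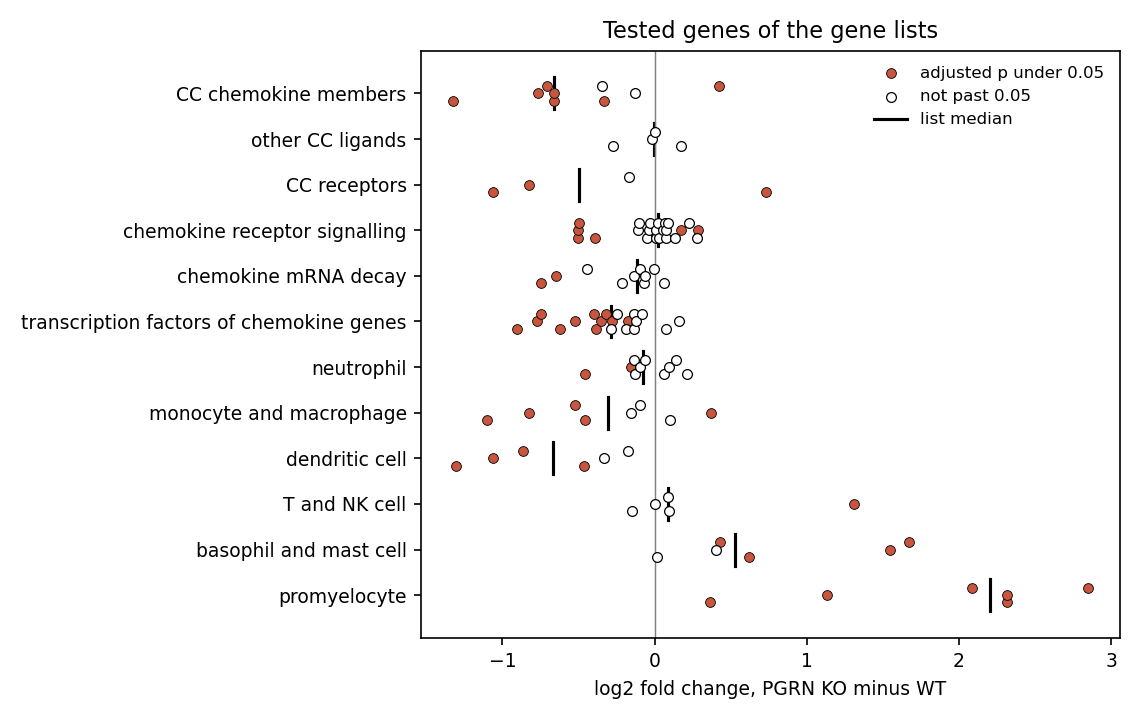
Log2 fold change (PGRN KO minus WT) of the tested genes of 12 of the lists, with filled points for an adjusted p under 0.05 from limma, open points for the rest and a bar at each list's median. The CC chemokine members, CC receptors and dendritic cell markers had medians of -0.66, -0.49 and -0.67, against 2.20 for promyelocyte markers.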

How the data were processed

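Neutrophil RNA was sequenced from 3 WT and 3 PGRN KO cultures, and all 6 libraries were used, grouped by their titles. The authors filtered the reads, mapped them with HISAT and deposited FPKM per gene. Their processing notes list HISAT2 2.0.5, featureCounts 1.5.0-p3 and the build mm10 (GRCm38), while the study's methods name HTSeq for the FPKM. Multiplied by the gene length and by the size of the library recovered from the steps in its values, every FPKM above 0 was a whole number of fragments within 0.05, which gave 17087344 to 18821091 fragments on genes per library, and at that depth a count of 0 allows up to 3 fragments. The deposited FPKM carry a scaling in which the median-of-ratios factor of each library is 1, so the PGRN KO values are lower than plain totals of fragments would make them.

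Here log2(FPKM + 1) was compared between genotypes with limma 3.58.1 (lmFit, eBayes with trend) in R 4.3.3, over genes whose FPKM averaged 0.1 or more, two-sided, with Benjamini-Hochberg adjustment. Such fold changes understate those of low genes. Libraries of a genotype were further apart than sampling noise would put them (chi-square per degree of freedom of at least 2.83). On simulated data the fit called 138 of 200 changed genes among 14807, among them 113 of 126 that averaged 1 FPKM or more, with 10 false calls. Recovery at the log2 fold changes and the spread of the members was not tested. The members and the 16 other gene lists were chosen with earlier results of these data known. Of these lists, 2 genes are not reported here. The named genes include Grn, all members, the tested CC ligands and receptors, and of each other list up to 4 genes with the largest called change and the most abundant gene. Python 3.11.15 with Biopython 1.88 read the sequences from GENCODE M21 and RefSeq. Alternatives were 2 pseudocounts, 2 filters, 3 scalings, 2 eBayes settings, limma voom on fragments, and each library left out.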

Additional observations from a re-analysis of the deposited data

How the results depend on the processing

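No paired analysis was possible because the replicate numbers of the labels run from 1 to 6 and none is shared between genotypes. Under the 16 alternatives, the number of members called stayed between 6 and 8, and Ccl2, Ccl5, Ccl6, Ccl9, Ccl22 and Ccrl2 kept their direction and their call in each. Ccl3 lost its call in 4, with an adjusted p of 0.169 under quantile normalization, 0.0868 with no filter on low values, 0.0546 without WT replicate 2 and 0.0601 without PGRN KO replicate 5, and its log2 fold change lay between -0.37 and -0.13. Ccl4 was not called in any, and its log2 fold change was -0.010 with plain totals of fragments and 0.12, the opposite sign, under quantile normalization. Ccl7 was called once, without WT replicate 1, and its log2 fold change of -0.34 became -0.97 with a pseudocount of 0.1 and -1.14 with voom, as a pseudocount of 1 shrinks changes of low genes. With no filter, Ccl17 had a log2 fold change of 0.00024 (adjusted p = 0.999). Median-of-ratios scaling changed nothing by construction. Over all genes, 1175 were higher and 1473 lower, but 2149 and 934 with plain totals of fragments. Leaving out 1 library gave 1322 to 2161 called genes against 2648, and the 4 lowest counts came without PGRN KO replicate 5 (1322) and without WT replicate 2 (1335), 1 (1612) or 3 (1662). Of the genes in the other lists, 55 were called (24 higher and 31 lower), 37 to 54 with a library left out, and 32 were higher and 24 lower with plain totals. The causes were not tested. Depth limits Ccl7, Ccl17 and the other CC ligands.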
